A study of Homo sapiens with 24 samples.

Results

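The genes described here are 36 markers of androgen signalling and of luminal prostate cells, taken by symbol from the 60660 features of the deposited tables. They were chosen as named genes and no measured value entered the rule. Earlier results of these data were, however, known when the list was drawn up. All 36 were found, each on 1 feature. RNA was sequenced from 24 libraries of 2 human prostate cancer cell lines: PC3, which is androgen-independent and comes from a bone metastasis, and LNCaP, which is androgen-sensitive and comes from a lymph node metastasis. The study compared parental cells of each line with a derivative made by chronic exposure (CE) to Acetalax (oxyphenisatin acetate, a former laxative), in view of the ion channel TRPM4. The 8 groups of 3 libraries were PC3 parental, LNCaP parental, PC3 CE and LNCaP CE cells, each untreated (control) and after 10 µM Acetalax for 4 h. CE cells had been passaged in rising amounts of the drug until resistant, and then spent 2 weeks without it before RNA was taken. Line and medium cannot be told apart, since serum-containing F-12 was used for PC3 and serum-containing RPMI-1640 for LNCaP. Whether a CE derivative was a single clone is not given in the sources used here. The libraries of a group are called biological triplicates, but no label ties them to separate cultures, so the spread behind each p-value is that of these libraries and may be technical.

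Androgens such as testosterone and dihydrotestosterone switch on genes of the prostate through response elements in DNA, where FOXA1 opens the chromatin beforehand. In luminal cells they drive secreted kallikrein proteases such as prostate-specific antigen and membrane proteins such as TMPRSS2. Enzymes that inactivate androgens are also made in these cells. Some of the targets, FKBP5 among them, also answer to glucocorticoids.

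KLK3 encodes prostate-specific antigen and had the highest mean level of the 36 genes in LNCaP. The 250 bases before its start are shown because they hold a known androgen response element of the gene. They lie at chr19:50854665-50854914 (GRCh38.p14, RefSeq, plus strand, no exon or gene body in GENCODE 29), and the capitals mark the closest match to the androgen response element, which is AGAACA, a spacer of 3 bases and TGTTCT.

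KLK3 upstream: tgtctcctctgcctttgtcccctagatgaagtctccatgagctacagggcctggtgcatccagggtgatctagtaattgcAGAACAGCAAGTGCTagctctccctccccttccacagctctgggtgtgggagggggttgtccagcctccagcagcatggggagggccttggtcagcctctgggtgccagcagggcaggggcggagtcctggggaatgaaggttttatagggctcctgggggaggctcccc

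The same element with 7 bases on each side is shown for KLK3, for its neighbour KLK2, and for PMEPA1 and FKBP5, which went different ways in the CE libraries. Capitals again mark the closest match in the 250 bases before a start.

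KLK3: taattgcAGAACAGCAAGTGCTagctctc
KLK2: tatgtgtGGAACAGCAAGTGCTggctctc
PMEPA1: ttaaaccTGAAGAATGTGTTCTtgtagca
FKBP5: tgggggcAGAAAAGCAGGGTCTcgggctt

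Counted from the first base of the element, the KLK3 match differs from it by T10A and T13G. The KLK2 match (chr19:50873256-50873284, plus strand, within an exon of longer KLK2 transcripts) differs by A1G, T10A and T13G. The PMEPA1 match (chr20:57710794-57710822, minus strand, within the body of PMEPA1 and an exon of the overlapping gene NKILA) differs by A1T and C5G and lies before 1 of the 4 starts listed for that gene. The FKBP5 match (chr6:35728781-35728809, minus strand, outside annotated genes) differs by C5A, T10G and T12G. RefSeq promoter entries were found for 27 of the 36 genes, and 2 of those 27 (7.41%), KLK3 and PMEPA1, held a match with at most 2 mismatches in the 12 fixed bases on either strand. Among all 27303 genes with an entry, 398 (1.46%) held one. The first 6 bases alone, AGAACA or the reverse complement TGTTCT, were present for 3 of the 27 genes (11.1%) and for 14.8% of all genes. These are matches of letters only. FKBP5 is known to be controlled largely from elements within its introns, which these windows do not cover.

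Totals ranged from 40160832 to 57728014 expected counts per library. Against the labelled cell type, an epithelial cancer line, 12 luminal epithelial markers such as KRT8, EPCAM and CDH1 summed to 2913 to 3348 TPM (a level scaled for gene length and library size) in PC3 parental controls and 2016 to 2253 in LNCaP parental controls. In the controls labelled CE the sums were 34.1 to 38.5 in PC3 and 7.80 to 10.0 in LNCaP. MSMB was at 0 in every CE library. A list of 8 fibroblast markers, such as the collagen COL1A2, summed to 31.6 to 39.5 and 9.24 to 23.4 TPM in parental PC3 and LNCaP, and to 2996 to 3003 and 986 to 1047 in the matching CE controls. The CE names below are therefore those of the labels, and the part of these markers in any result was not tested. Within LNCaP, parental control 2 was the lowest of its group for 25 of the 35 genes with a mean of at least 1 TPM, and parental Acetalax 3 for 26 of 34. Both also held little NDRG1, an androgen- and hypoxia-responsive gene, at 52.4 TPM against 603 and 681 in the other controls and at 42.4 against 581 and 443 in the other Acetalax libraries. PC3 CE Acetalax 1 went the other way, with NDRG1 at 60.0 TPM against 5.51 and 4.38. Results that rest on these 3 libraries are given with and without them.

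**Figure D1:**
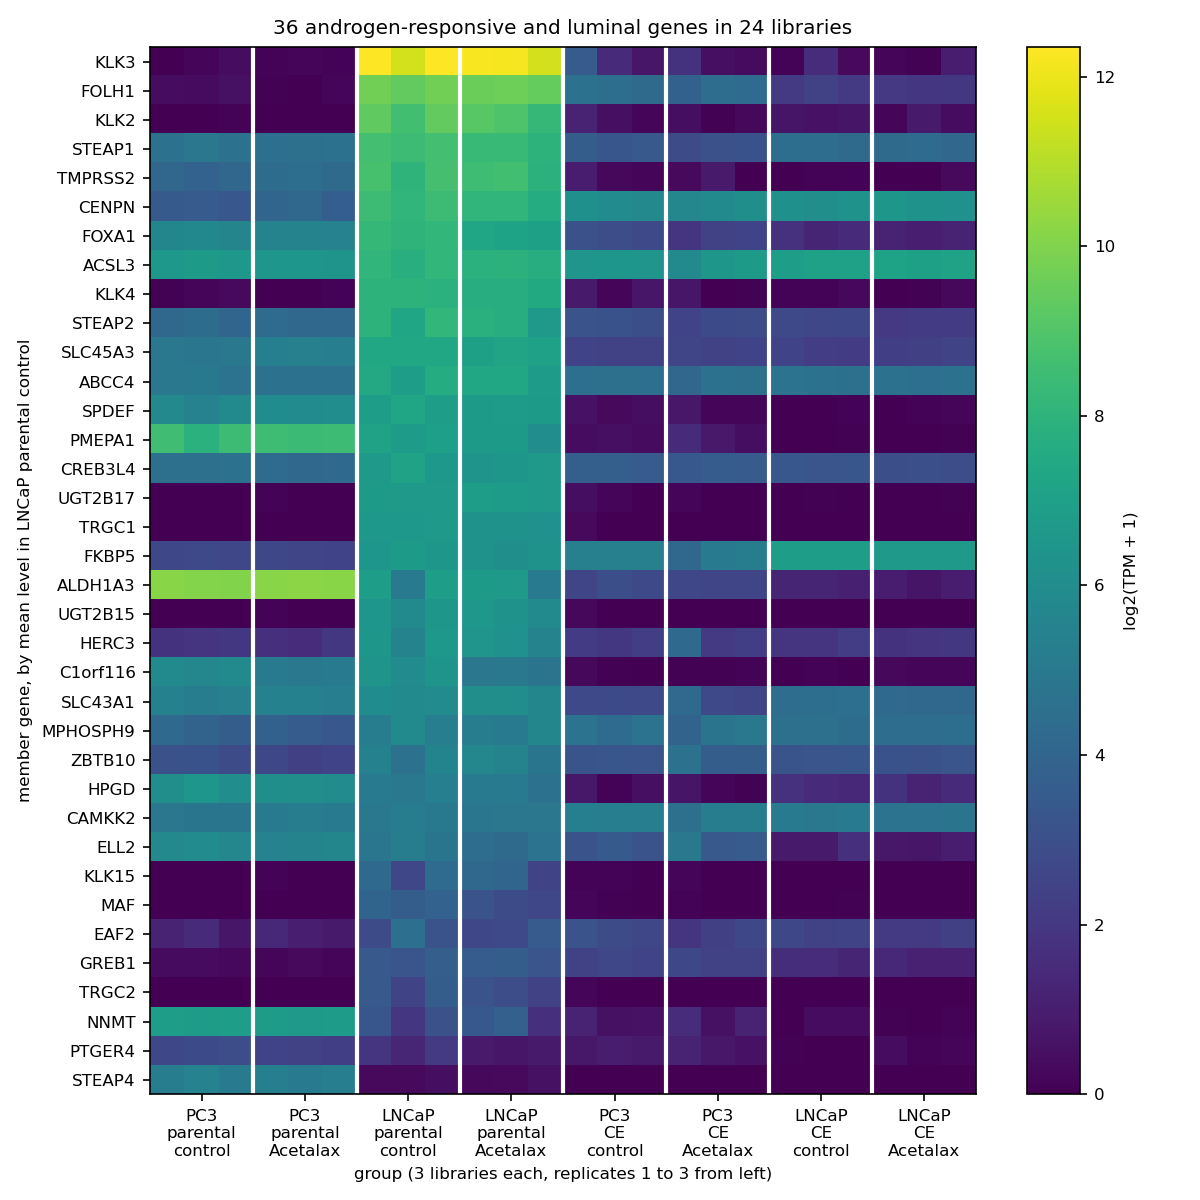
Level of all 36 genes as log2(TPM + 1), by colour, in 24 libraries, with 3 columns per group and genes ordered by their mean in LNCaP parental controls. LNCaP parental libraries are bright for most genes, PC3 parental libraries for ALDH1A3, PMEPA1 and NNMT, and CE libraries for few, among them ACSL3, FKBP5 and CENPN.

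Most of the genes were far higher in LNCaP than in PC3 before any treatment. Of the 36, 27 were higher in LNCaP parental controls and 6 were lower (edgeR's quasi-likelihood test with Benjamini-Hochberg adjustment over all genes tested, adjusted p under 0.05), against 35.5% higher and 34.7% lower of all 21955 genes tested. The median log2 difference was 2.96, against 0 over all genes. In all 33 the TPM values of the lines did not overlap, but these were picked by the test. The share without overlap among all genes was not counted. In PC3 10 of the 36, the kallikreins, FOLH1 and MAF among them, lay below the low-count filter. They entered the fit through LNCaP and had to be higher there. Of the 26 genes above the filter in both lines, a selection made after seeing the data, 17 were higher and 6 lower, against 38.8% and 33.7% of all such genes. Without the 3 libraries set apart all 36 were called, 29 higher and 7 lower, against 76.6% called of all genes. In a bulk sample, fewer cells of a type and less RNA per cell cannot be told apart.

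The median of the 36 mean levels was 92.4 TPM in LNCaP and 14.9 in PC3. Summed over the 36 genes, the LNCaP controls held 10467, 7262 and 10718 TPM and the PC3 controls 2187 ± 89.8 (SD, n = 3). KLK3 alone made up 45.7% of the LNCaP sum. In LNCaP 32 of the 36 genes had a mean of at least 10 TPM, and in PC3 20 had.

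The secreted kallikreins were high in LNCaP and near 0 in PC3. KLK3 was at 5057, 2921 and 5219 TPM in the 3 LNCaP controls and at 0, 0.13 and 0.35 in PC3, a log2 difference of 15.60 ± 1.45 (SE, adjusted p = 6.66e-09). KLK2, the close relative that activates prostate-specific antigen, was at 647, 385 and 669 TPM in LNCaP and 0.01, 0 and 0.07 in PC3, which gave 13.58 ± 0.68 (SE, adjusted p = 2.27e-12). LNCaP control 2 was the lowest of the 3 for both, and PC3 was near 0 throughout. Errors after ± are SE for log2 differences throughout. KLK4, another prostate kallikrein, differed by 11.44 ± 0.58. KLK15 had 1467 counts in LNCaP and 0 in PC3, so it was at least 418-fold higher, with 3 counts over the group as the floor. Fitted values against a group near 0 depend on the prior count of the fit and are no bounds.

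Among membrane proteins, FOLH1, which encodes prostate-specific membrane antigen, was at 836, 676 and 851 TPM in LNCaP and 0.34, 0.29 and 0.45 in PC3, a log2 difference of 12.83 ± 0.24 (SE, adjusted p = 1.98e-19). TMPRSS2, a serine protease whose gene is often fused to ETS factors in prostate cancer, was expressed in both lines, at 427, 264 and 418 TPM in LNCaP and 16.1, 13.7 and 16.0 in PC3, with a difference of 4.65 ± 0.50 (SE, adjusted p = 5.67e-08). SLC45A3, the prostate transporter also called prostein, was at 168, 171 and 166 TPM in LNCaP and 30.2, 27.7 and 29.7 in PC3 (2.60 ± 0.11, adjusted p = 1.45e-14). These 3 were detected in PC3 to very different degrees, and none overlapped between lines. The metalloreductases STEAP1 and STEAP2 were higher in LNCaP, by 3.90 ± 0.12 and 3.81 ± 0.23, and their relative STEAP4 was lower, at 0.26, 0.25 and 0.37 TPM against 35.5, 43.2 and 34.5 (-6.94 ± 0.22, adjusted p = 3.55e-15).

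FOXA1 and SPDEF, transcription factors of luminal cells, were expressed in both lines. FOXA1 was at 297, 258 and 292 TPM in LNCaP and 50.3, 53.0 and 48.3 in PC3, with a log2 difference of 2.35 ± 0.15 (SE, adjusted p = 2.16e-11). SPDEF, an ETS factor of secretory epithelium, was at 117, 160.1 and 117 TPM in LNCaP, where control 2 was the highest, and 56.1, 43.2 and 57.0 in PC3 (1.32 ± 0.30, adjusted p = 0.000594). MAF, a leucine-zipper factor, had 5244 counts in LNCaP and 0 in PC3, at least 1490-fold higher. CREB3L4, a factor bound to the endoplasmic reticulum, differed by 2.51 ± 0.15, and GREB1, a cofactor known from hormone-driven breast and prostate cancer cells, by 6.56 ± 0.21.

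The 2 enzymes that attach glucuronic acid to androgens, UGT2B15 and UGT2B17, had 1 count each over the 3 PC3 controls. In LNCaP UGT2B15 was at 89.6, 57.0 and 92.8 TPM and UGT2B17 at 104, 101 and 101. The ratio of counts was 12900 for UGT2B15 (95% exact interval 2320 to 511000) and 16400 for UGT2B17 (2950 to 649000). TRGC1 and TRGC2 are constant segments of the T cell receptor gamma locus, which prostate cells are known to transcribe without a receptor being made. TRGC1 was at 95.0, 96.6 and 97.8 TPM in LNCaP, with 24419 counts against 1 in PC3, and TRGC2 had 706 counts against 0. T cell markers summed to 0.03 to 0.12 TPM in LNCaP controls, with 6 of 8 at 0, CD3D and CD3G among them. Of all 100-base windows in the GENCODE 29 transcripts, UGT2B15 and UGT2B17 share 12.7%, TRGC2 shares 24% with TRGC1, and KLK2 and KLK3 share none, so that the split of reads within the first and second pairs is uncertain.

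FKBP5, a co-chaperone of nuclear hormone receptors, was at 90.0, 106 and 91.0 TPM in LNCaP and 5.36, 5.61 and 5.24 in PC3 (4.12 ± 0.21, adjusted p = 3.17e-13). CENPN, a centromere protein, differed by 5.50 ± 0.16. C1orf116, known as the specifically androgen-regulated gene, was at 82.8, 62.1 and 82.7 TPM in LNCaP and 59.1, 51.6 and 56.3 in PC3, a small difference of 0.51 ± 0.21 (SE, adjusted p = 0.0409) that lost its call with RLE scaling, on the log2(TPM + 0.1) scale (0.44, adjusted p = 0.113) and without 5 of the 6 libraries in turn. The other genes higher in LNCaP, namely EAF2, HERC3, ABCC4, ZBTB10, MPHOSPH9 and ACSL3, differed by 1.38 to 4.63 on the log2 scale.

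The 6 genes lower in LNCaP were STEAP4, NNMT, ALDH1A3, PMEPA1, PTGER4 and HPGD. NNMT, which methylates nicotinamide, was at 115, 112 and 115 TPM in PC3 and 8.82, 2.83 and 7.24 in LNCaP (-3.96 ± 0.51, adjusted p = 7.2e-07). ALDH1A3, a retinaldehyde dehydrogenase, was the highest of the 36 genes in PC3, at 1120.0, 1074 and 1028 TPM, against 117, 33.3 and 117 in LNCaP (-3.71 ± 0.33, adjusted p = 3.82e-09). PC3 was tight in both, and LNCaP control 2 was the lowest library in both. PMEPA1, an inhibitor of TGF-beta signalling, PTGER4, a prostaglandin E2 receptor, and HPGD, which degrades prostaglandins, differed by -1.57 ± 0.44, -1.35 ± 0.28 and -1.04 ± 0.24. The PMEPA1 call was lost with DESeq2 (adjusted p = 0.0532). CAMKK2, ELL2 and SLC43A1, a kinase, an elongation factor and an amino acid transporter, did not pass the test, at 0.26 ± 0.12, -0.63 ± 0.31 and 0.59 ± 0.30.

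**Figure D2:**
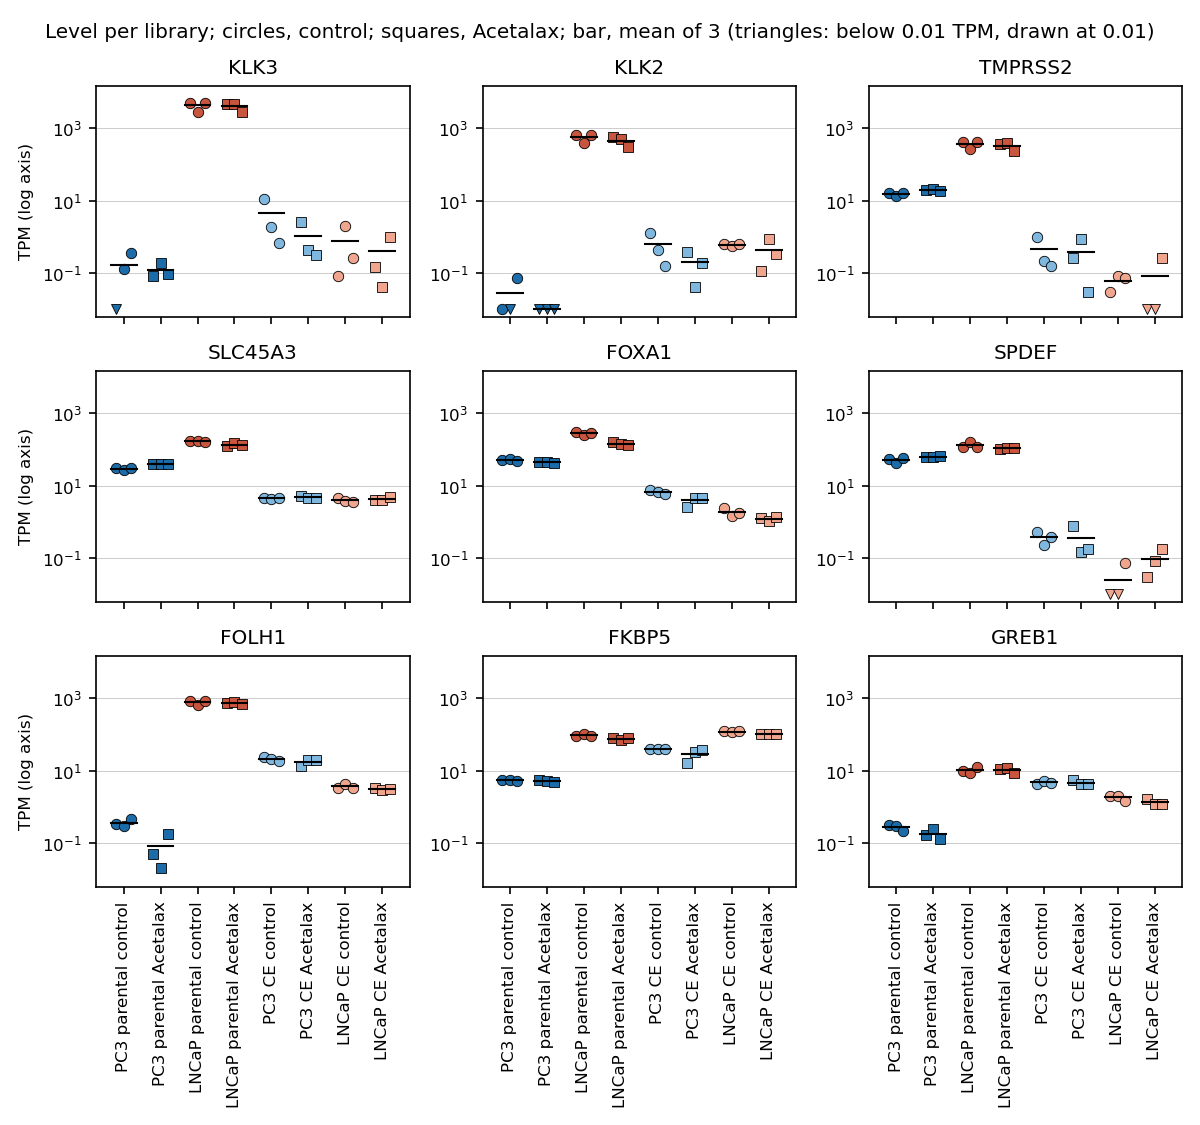
TPM on a log axis in each library for 9 of the genes, with circles for control, squares for Acetalax and a bar at the mean of 3. LNCaP parental libraries are highest for every panel but FKBP5, where LNCaP CE controls at 115 to 122 lie above LNCaP parental controls at 90.0 to 106.

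In the libraries labelled LNCaP CE nearly the whole set was low. Of the 36 genes, 34 were lower than in LNCaP parental controls and 1, FKBP5, was higher, against 39.3% lower and 36% higher of all 19393 genes tested. The median log2 difference was -5.80, against -0.06 over all genes. In LNCaP CE libraries 15 of the 36 lay below the low-count filter, among them TMPRSS2, SPDEF, KLK3, PMEPA1, MAF and both UGT2B enzymes. Those 15 entered the fit through parental libraries and had to be lower, so neither 34 nor the median can be read against all genes for them. Of the 21 genes above the filter in both kinds of cells 19 were lower and 1 higher, against 33.3% and 39.2% of all such genes. The summed level was 486 ± 6.86 TPM (SD, n = 3), and 8 genes had a mean of at least 10 TPM. CAMKK2 was the gene that did not pass, at 32.3, 29.8 and 32.9 TPM against 30.3, 36.1 and 30.7 (0.03 ± 0.11, adjusted p = 0.817).

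KLK3 was at 0.08, 2.00 and 0.25 TPM in LNCaP CE controls, a log2 fold change of -12.54 ± 1.08 (SE, adjusted p = 1.11e-06). KLK2 was at 0.62, 0.54 and 0.61 TPM (-10.38 ± 0.34, adjusted p = 4.55e-10), and KLK4 changed by -11.15 ± 0.25 and KLK15 by -9.94 ± 1.02. No kallikrein exceeded 2.00 TPM in any LNCaP CE library, and the lowest value of any in a parental control was 5.26 TPM, for KLK15 in control 2. TMPRSS2 was at 0.03, 0.08 and 0.07 TPM, a change of -12.89 ± 0.59 (SE, adjusted p = 5.44e-09). FOLH1 was at 3.27, 4.28 and 3.32 TPM (-7.70 ± 0.14, adjusted p = 1.22e-11) and SLC45A3 at 4.56, 3.80 and 3.56 (-5.30 ± 0.14, adjusted p = 1.01e-10), both far below every parental control and well above 0. STEAP1 was at 21.2, 20.3 and 18.3 TPM, with a change of -4.16 ± 0.11.

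Among the transcription factors, FOXA1 was at 2.44, 1.46 and 1.73 TPM in LNCaP CE controls, a change of -7.28 ± 0.12 (SE, adjusted p = 4.02e-12). SPDEF was at 0, 0 and 0.07 TPM (-12.17 ± 0.50, adjusted p = 2.36e-09). Neither factor came near the parental level, which was at least 117 TPM in every control. UGT2B15, TRGC1 and TRGC2 had 0 counts over the 3 LNCaP CE controls, and were at least 4470-, 7210- and 208-fold lower than in parental controls. UGT2B17 had 3 counts against 19224, a ratio of 5670 (95% exact interval 1940 to 27500). PMEPA1 was at 0, 0.01 and 0.04 TPM (-12.00 ± 0.69, adjusted p = 3.79e-08) and C1orf116 at 0.03, 0.07 and 0.02 (-11.15 ± 0.23, adjusted p = 2.02e-11).

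A smaller group fell less. ACSL3, a long-chain acyl-CoA synthetase, was at 118, 132 and 132 TPM against 282, 222 and 287 in parental controls (-0.84 ± 0.08, adjusted p = 2.05e-06). MPHOSPH9 and SLC43A1 changed by -0.88 ± 0.18 and -1.63 ± 0.09, ABCC4, an exporter of cyclic nucleotides and drugs, by -2.60 ± 0.15, and CENPN and GREB1 by -2.76 ± 0.14 and -2.76 ± 0.12. FKBP5 alone rose, at 122, 115 and 122 TPM against 90.0, 106 and 91.0, by 0.42 ± 0.11 (SE, adjusted p = 0.0049). The 3 CE controls lay above all 3 parental controls. STEAP2, STEAP4, MAF, ELL2, HERC3, HPGD, CREB3L4, NNMT, ALDH1A3, PTGER4, ZBTB10 and EAF2 were the other genes that fell, by -1.29 (EAF2) to -9.31 (MAF) on the log2 scale. EAF2 had been uneven before, at 6.34, 21.7 and 7.96 TPM in parental controls with control 2 the highest. Without the 2 LNCaP libraries set apart EAF2 changed by -0.45 (adjusted p = 0.0277). All 36 genes were then called, 34 lower and 2 higher, against 84.8% called of all genes.

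The libraries labelled PC3 CE moved in both directions. Low counts removed 8 genes from the PC3 fit, namely KLK2, KLK4, KLK15, TRGC1, TRGC2, MAF, UGT2B15 and UGT2B17, all of which had at most 0.23 TPM in every PC3 parental control. Of the 28 tested, 17 were lower and 8 higher than in parental controls, against 39% lower and 38.5% higher of 20049 genes. FOLH1 and KLK3 lay below the filter in PC3 parental cells, and STEAP4, C1orf116, HPGD and NNMT in PC3 CE cells. They entered the fit through the other kind of cells and had to differ. The 28 therefore do not stand for the whole set. Of the 22 above the filter in both kinds of PC3 cells 13 were lower and 6 higher, against 35.7% and 40.4% of all such genes. The median log2 difference of the 28 was -1.28, against -0.01 over all genes, and the summed level of all 36 was 387 ± 21.9 TPM (SD, n = 3).

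Genes that fell had to be expressed in PC3 parental cells, since those near 0 there could not be called lower. STEAP4 was at 0, 0.01 and 0 TPM in PC3 CE controls, with 2 counts against 16008, a ratio of 9260 (95% exact interval 2560 to 76400). PMEPA1 was at 0.34, 0.44 and 0.27 TPM (-9.99 ± 0.67, adjusted p = 5.76e-08), and ALDH1A3 at 5.07, 6.88 and 5.55 (-7.61 ± 0.10, adjusted p = 1.27e-12). All 3 had been well expressed in PC3 parental controls, at 37.8, 320.4 and 1074 TPM on average. C1orf116, HPGD, NNMT and SPDEF, the last at 0.53, 0.23 and 0.38 TPM, changed by -9.30 ± 0.38, -8.28 ± 0.40, -7.57 ± 0.35 and -7.19 ± 0.44. FOXA1 was at 7.40, 6.60 and 5.65 TPM (-3.04 ± 0.19, adjusted p = 2.87e-08), SLC45A3 at 4.64, 4.31 and 4.50 (-2.69 ± 0.09, adjusted p = 2.12e-10), and TMPRSS2 at 0.98, 0.21 and 0.15 (-5.07 ± 0.67, adjusted p = 2.35e-05). The first 2 were tight across the 3 libraries, while TMPRSS2 was highest in PC3 CE control 1. PTGER4, SLC43A1, ELL2, STEAP1, STEAP2, CREB3L4 and ABCC4 also fell, from -3.34 ± 0.28 for PTGER4 to -0.43 ± 0.13 for ABCC4. ACSL3, ZBTB10 and HERC3 did not pass, at -0.10 ± 0.16, 0.23 ± 0.22 and 0.48 ± 0.44. Without PC3 CE Acetalax 1, which shares the estimate of spread, ZBTB10 (0.23, adjusted p = 0.012) and HERC3 (0.48, adjusted p = 0.000943) passed, and 27 of the 28 were called, 10 higher and 17 lower, against 84.4% called of all genes.

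The 8 genes that rose were FOLH1, KLK3, GREB1, FKBP5, CENPN, EAF2, MPHOSPH9 and CAMKK2. FOLH1 was at 23.4, 20.9 and 18.2 TPM in PC3 CE controls and rose by 7.58 ± 0.27 (SE, adjusted p = 2.21e-10). It was below the low-count filter in PC3 parental cells, so it entered the fit through CE libraries and had to be higher. GREB1 was at 4.35, 5.19 and 4.64 TPM against 0.3, 0.29 and 0.21 (5.33 ± 0.24, adjusted p = 1.99e-09). FKBP5 was at 40.4, 40.6 and 40.9 TPM (2.82 ± 0.23, adjusted p = 3.92e-07). The values of these 3 were close together within PC3 CE and clear of PC3 parental cells. CENPN and EAF2, a partner of the ELL elongation factors, rose by 2.52 ± 0.12 and 2.28 ± 0.38. MPHOSPH9 changed by 0.87 ± 0.18 and CAMKK2 by 0.37 ± 0.13, the second losing its call without any of 3 single libraries (PC3 parental control 1 or 2, or PC3 CE control 2).

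KLK3 also passed the test in PC3 CE (5.65 ± 1.40, adjusted p = 0.00298), but unevenly, at 10.8, 1.85 and 0.68 TPM and 430, 77 and 28 counts. Like FOLH1, it was below the filter in PC3 parental cells and had to be higher. Without PC3 CE control 1 the KLK3 difference was 3.88 (adjusted p = 0.0145). KLK2 was not tested, at 1.29, 0.42 and 0.15 TPM. The same library, PC3 CE control 1, was the highest of the 3 for TMPRSS2 (92, 20 and 11 counts), UGT2B17 (22, 7 and 2), TRGC1 (18, 1 and 1) and UGT2B15 (13, 1 and 1). As a share of the LNCaP parental mean, that library held 0.244% of the KLK3 level, 0.227% of KLK2, 0.265% of TMPRSS2, 0.238% of TRGC1, 0.276% of UGT2B15 and 0.372% of UGT2B17. It held 0.343% of KLK4, 0.578% of KLK15, 0.904% of MAF, 1.48% of TRGC2, 0.404% of SPDEF, 0.278% of PMEPA1 and 0.277% of C1orf116. STEAP4 was at 0, but its LNCaP parental mean of 0.293 TPM is too low for such a share to show. The shares for FOXA1 (2.62%), FOLH1 (2.97%), GREB1 (42.1%) and FKBP5 (42.2%) were larger. Carry-over of reads between libraries was not tested.

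**Figure D3:**
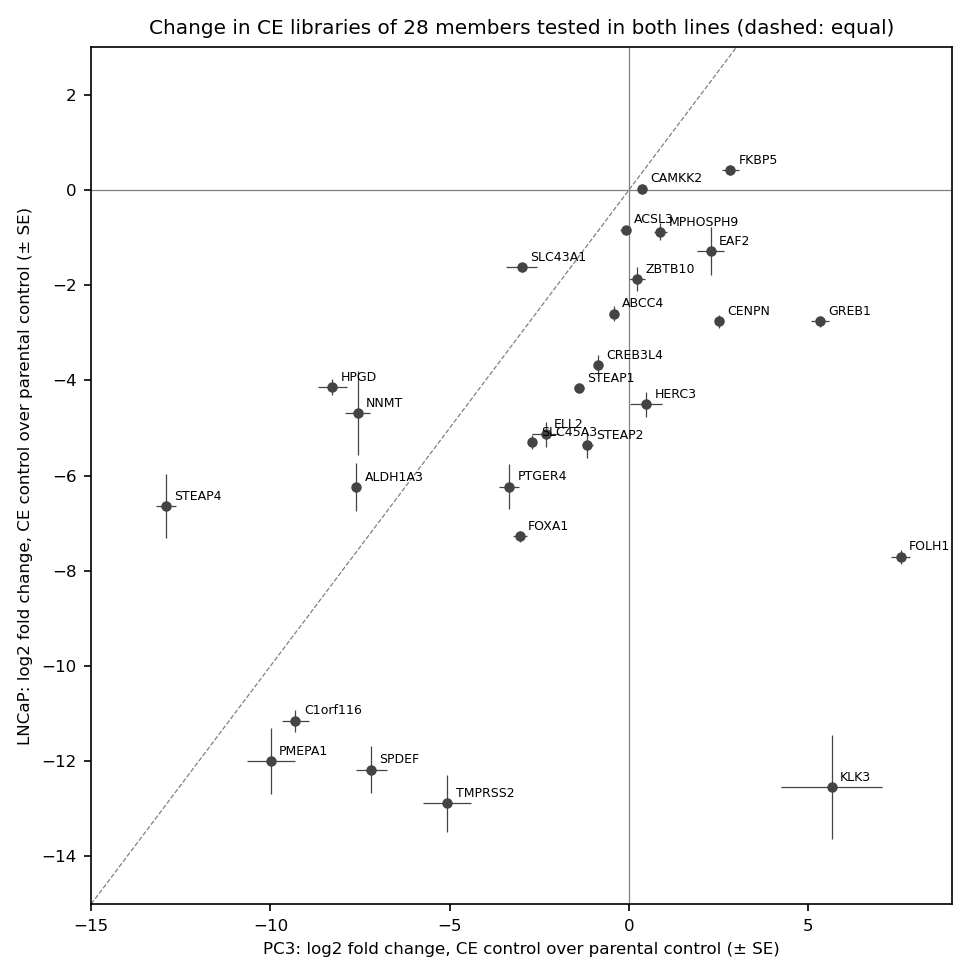
Log2 fold change of CE over parental controls in PC3 (x) and LNCaP (y) for the 28 genes tested in both lines, with standard errors and a dashed line of equal change. FOLH1, KLK3, GREB1, CENPN, EAF2 and MPHOSPH9 lie to the right of 0 and below it, and STEAP4, HPGD, NNMT, ALDH1A3 and SLC43A1 lie above the dashed line.

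The change differed between the lines for 34 of the 36 genes, with 29 lower and 5 higher in LNCaP, against 31.2% lower and 25.7% higher of 21955 genes. The 8 genes absent from the PC3 fit are among the 29. They entered this fit through LNCaP parental libraries, so their direction was fixed. Of the 18 genes above the filter in all 4 kinds of cells 15 were lower and 2 higher, against 34.9% and 30.4% of all such genes. FOLH1 rose in PC3 and fell in LNCaP, a difference of -15.31 ± 0.28 (SE, adjusted p = 1.75e-19). Its size rests on 20 counts over the PC3 parental controls. The 5 that were higher were STEAP4, HPGD, NNMT, SLC43A1 and ALDH1A3. STEAP4 and NNMT lay below the filter in both CE lines, so their differences mostly restate the higher PC3 parental levels. HPGD lay below it in PC3 CE only. HPGD fell in both lines and by less in LNCaP, with a difference of 4.11 ± 0.42 (SE, adjusted p = 4.78e-08). STEAP4, NNMT, SLC43A1 and ALDH1A3 differed by 6.26 ± 2.22, 2.87 ± 1.18, 1.34 ± 0.43 and 1.34 ± 0.46. STEAP4 lost its call without LNCaP CE control 2 (4.33, adjusted p = 0.977), and NNMT without any of 8 single libraries. PMEPA1 and CAMKK2 did not pass, at -2.04 ± 1.20 and -0.37 ± 0.17. Both passed without the 3 libraries set apart (-2.17, adjusted p = 0.00962 and -0.25, adjusted p = 0.00119). All 36 genes were then called, 31 lower and 5 higher, against 66% called of all genes.

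Between the CE lines themselves, 19 of the 36 genes differed, 14 lower and 5 higher in LNCaP CE, against 24.2% lower and 16.7% higher of all genes. The 5 higher ones were FKBP5, STEAP1, HPGD, ACSL3 and SLC43A1, with FKBP5 at 1.69 ± 0.18 (SE, adjusted p = 2.7e-07), STEAP1 at 1.11 ± 0.12 and HPGD, at 2.38, 1.73 and 1.67 TPM against 0.73, 0.08 and 0.42, at 3.07 ± 0.35 (SE, adjusted p = 4.35e-07). FOLH1 was lower in LNCaP CE, at -2.48 ± 0.15 (SE, adjusted p = 2.57e-11), as were FOXA1 at -1.92 ± 0.16, GREB1 at -1.55 ± 0.16, ALDH1A3 at -2.37 ± 0.35 and, with overlapping TPM values, C1orf116 at -1.36 ± 0.53. PTGER4 and ELL2 differed by -4.27 ± 0.45 and -3.46 ± 0.36, and SPDEF and PMEPA1 by -3.69 ± 0.87 and -3.61 ± 1.02 at under 0.6 TPM in both. SLC45A3, at 4.56, 3.80 and 3.56 TPM in LNCaP CE and 4.64, 4.31 and 4.50 in PC3 CE, did not pass (-0.03 ± 0.11, adjusted p = 0.864). The calls of KLK3, TMPRSS2, TRGC1, UGT2B15 and UGT2B17 (-2.63 ± 0.99, -3.20 ± 0.92, -5.70 ± 1.63, -5.29 ± 1.78 and -3.10 ± 1.19) were all lost without PC3 CE control 1, and without it 13 of the 36 genes were called. Without the 3 libraries set apart 25 were, 18 lower and 7 higher, against 58.8% called of all genes. Of the 19 genes above the filter in both CE lines, 5 were lower and 4 higher, against 24.2% and 21.8% of all such genes.

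After Acetalax for 4 h few of the 36 genes, as of all genes, were called in the full fits. More of both were called without the 3 libraries set apart. In LNCaP parental cells 4 of the 36 fell, against 8.45% called of 19393 genes, and the median log2 change was -0.20, against -0.01 over all genes. FOXA1 was at 158, 143 and 129 TPM after the drug against 297, 258 and 292 before, and fell by 0.87 ± 0.09 (adjusted p = 0.000208). C1orf116 was at 28.8, 29.7 and 26.3 against 82.8, 62.1 and 82.7 TPM, a change of -1.26 ± 0.13 (SE, adjusted p = 0.000315). MAF was at 7.89, 6.01 and 5.15 against 14.9, 11.3 and 13.6 TPM (-1.04 ± 0.17, adjusted p = 0.00424). All treated libraries lay below all controls for these 3 genes. PTGER4 was at 0.83, 0.66 and 0.85 against 2.73, 1.55 and 3.26 TPM (-1.50 ± 0.33, adjusted p = 0.0187), and lost its call without any of 4 single libraries.

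KLK3 did not pass the test in LNCaP, at 4839, 4633 and 2909 TPM after Acetalax (-0.01 ± 0.65, adjusted p = 1). TMPRSS2 was at 370.4, 389 and 243 (-0.03 ± 0.32, adjusted p = 1) and FOLH1 at 759, 793 and 682 (-0.02 ± 0.11, adjusted p = 0.973). In KLK3 and TMPRSS2 the low libraries were control 2 and Acetalax 3, the pair set apart above. Without those 2 libraries 14 of the 36 genes were called, 12 lower and 2 higher, against 26.6% called of all genes. KLK2, KLK4, FKBP5, STEAP1, STEAP2, TRGC1, CENPN and ELL2 were then also lower, by 0.17 to 0.40 on the log2 scale, and ZBTB10 and SLC43A1 were higher, by 0.31 and 0.25. FOXA1, C1orf116, MAF and PTGER4 were at -0.83, -1.35, -0.94 and -1.70.

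**Figure D4:**
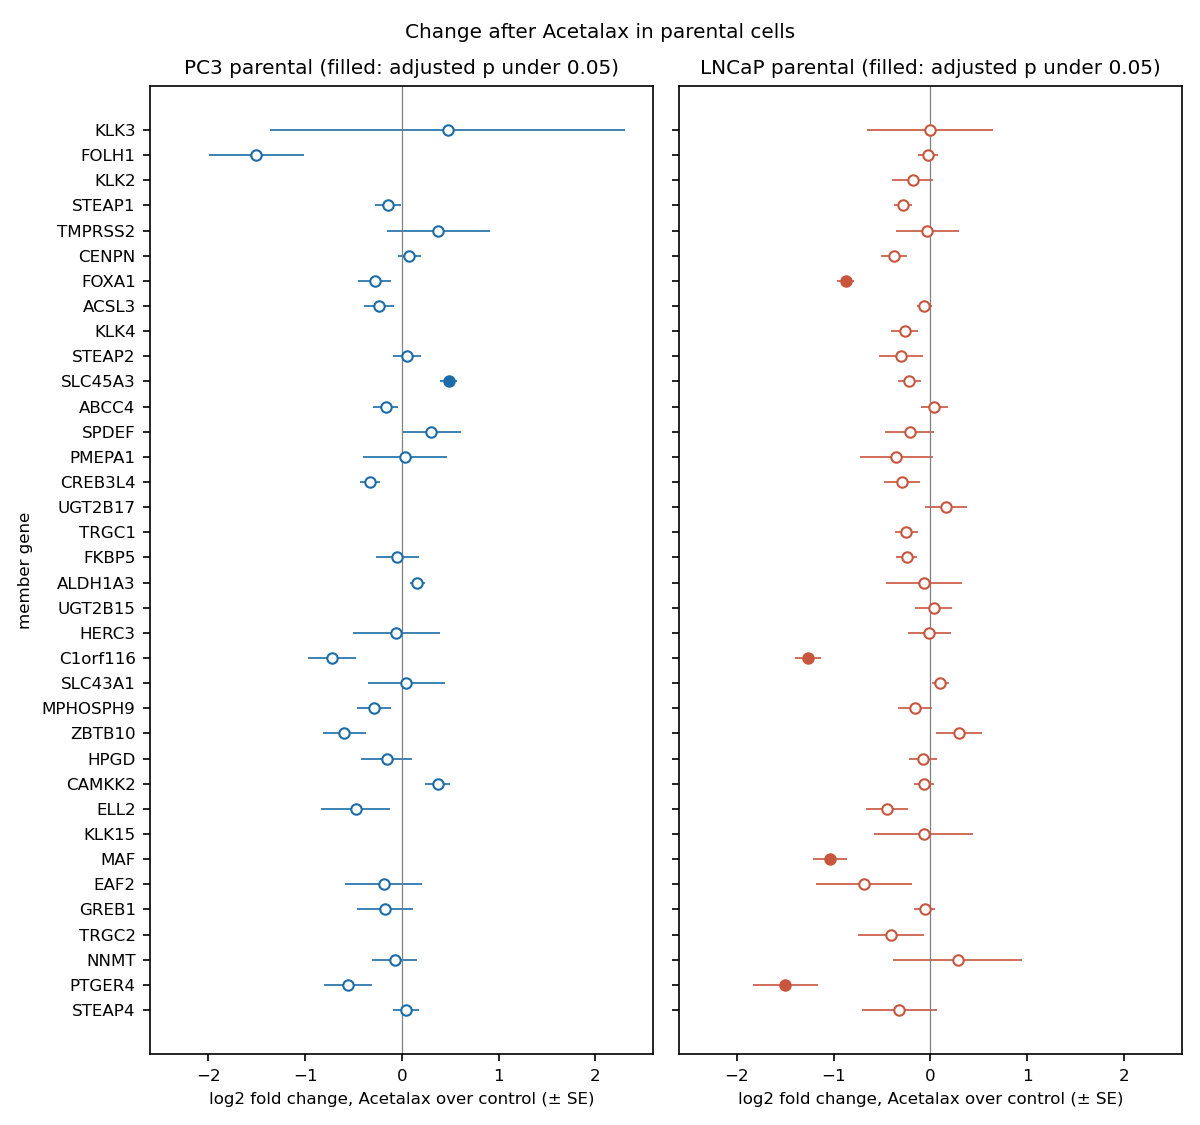
Log2 fold change of Acetalax over control with standard errors in PC3 parental (28 genes tested) and LNCaP parental cells (36 genes), filled where the adjusted p was under 0.05. FOXA1, C1orf116, MAF and PTGER4 are filled and left of 0 in LNCaP, and SLC45A3 is filled and right of 0 in PC3.

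In PC3 parental cells 1 of the 28 genes tested was called, against 7.8% of all genes. SLC45A3 was at 39.8, 40.3 and 38.6 TPM after Acetalax against 30.2, 27.7 and 29.7 before, and rose by 0.49 ± 0.09 (SE, adjusted p = 0.0063). The treated and control libraries did not overlap. The response of SLC45A3 differed between the parental lines by -0.70 ± 0.14 (SE, adjusted p = 0.00508), LNCaP standing at 129, 147 and 131 TPM after Acetalax, and it was the 1 of 36 genes to do so, against 5.05% of all genes. Without the 3 libraries set apart 7 did, against 19.3% of all genes. C1orf116 was at 32.8, 29.9 and 34.3 TPM after the drug in PC3 against 59.1, 51.6 and 56.3 before, again without overlap, but missed the threshold (-0.72 ± 0.24, adjusted p = 0.103). The spread of the PC3 fit included PC3 CE Acetalax 1. Without that library 13 of the 28 genes were called, against 27.3% of all genes. Of these 4 were higher (SLC45A3, CAMKK2, SPDEF and ALDH1A3, by 0.16 to 0.49) and 9 lower, among them C1orf116 (-0.72), ZBTB10 (-0.59), PTGER4 (-0.56) and FOLH1 (-1.51, at under 0.5 TPM).

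In PC3 CE cells 1 of the 28 genes was called after Acetalax, against 8.15% of all genes. ZBTB10, a zinc finger repressor, was at 23.4, 11.4 and 11.7 TPM against 8.18, 8.72 and 8.48 (0.91 ± 0.22, adjusted p = 0.0294). All treated libraries were above the controls, and replicate 1 was the highest. HERC3, ELL2 and SLC43A1 were also high in that library alone, at 17.7, 30.3 and 17.9 TPM against at most 3.86, 10.7 and 5.67 in the other 2. Without it ZBTB10 changed by 0.51 (adjusted p = 0.000681) and 5 genes were called, against 16.4% of all genes, the other 4 being lower: FOXA1, STEAP1, TMPRSS2 and KLK3. The call of ZBTB10 was lost without any single PC3 CE control (adjusted p = 0.0936 to 0.109), on the log2(TPM + 1) and log2(TPM + 0.1) scales (0.0758 and 0.0778) and with only the compared libraries (0.161). Its response differed between CE and parental PC3 cells by 1.50 ± 0.31 (SE, adjusted p = 0.014), the 1 of 28 genes to do so, against 8.03% of all genes, and without PC3 CE Acetalax 1 that count was 9, against 22.5% of all genes.

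In LNCaP CE cells 2 of the 36 genes were called after Acetalax, against 7.4% of all genes. C1orf116 rose by 2.64 ± 0.28 (SE, adjusted p = 0.000547) at a very low level, with 34, 24 and 37 counts against 5, 6 and 3. On the log2(TPM + 1) scale it did not pass (0.16, adjusted p = 0.514). ACSL3 was at 140.1, 129.7 and 137 TPM against 118, 132 and 132, with overlap between the groups, and changed by 0.29 ± 0.08 (SE, adjusted p = 0.0454). It lost its call without any of the 6 libraries, with RLE scaling and without the filter. Without LNCaP parental control 2 and Acetalax 3, which share the estimate of spread, 9 genes were called, 5 higher and 4 lower, against 34.1% called of all genes. The response differed between CE and parental LNCaP cells for 2 of the 36 genes, against 1.28% of all genes, namely C1orf116 (3.90 ± 0.30, adjusted p = 0.000317) and FOXA1 (0.85 ± 0.13, adjusted p = 0.0128). FOXA1 was at 1.24, 1.06 and 1.30 TPM after the drug in LNCaP CE and 2.44, 1.46 and 1.73 before. Its call was lost on the log2(TPM + 1) and log2(TPM + 0.1) scales (0.60, adjusted p = 0.123 and 0.40, adjusted p = 0.536). Without the same 2 libraries the count was 7, against 19.3% of all genes.

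NR3C1, the glucocorticoid receptor, was at 14.4, 15.2 and 13.4 TPM in PC3 parental controls, 0.33, 0.07 and 0.47 in LNCaP, 0.2, 0.56 and 0.27 in PC3 CE and 0.03, 0.06 and 0.13 in LNCaP CE. In the CE controls NR3C1 did not exceed 0.56 TPM, and FKBP5 was between 40.4 and 122 TPM. Any link between the levels of these genes was not tested.

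Of 25 genes of androgen synthesis and inactivation, 12 were higher and 5 lower in LNCaP than in PC3 parental cells, of 22 tested. Of all genes 35.5% were higher and 34.7% lower. In LNCaP CE 14 of 19 were lower and 3 higher, against 39.3% and 36% of all genes. UGT2B11, a relative of UGT2B15, was at 43.6, 41.1 and 44.3 TPM in LNCaP parental controls and listed at 0 in all 3 LNCaP CE controls. At 0 there, it could only be called lower. Genes below the filter in one kind of cells were not counted for this list or those below. Their counts between kinds of cells therefore cannot be read against all genes. AKR1C3, which makes testosterone from androstenedione, was at 423, 412 and 407 TPM in LNCaP CE controls and 9.73, 10.1 and 11.2 in PC3 CE, a difference of 5.26 ± 0.55 (SE, adjusted p = 1.51e-07). Of 82 other androgen-responsive genes, 43 were lower and 23 higher in LNCaP CE, against 39.3% and 36% of all genes. Their median log2 difference was -0.52, against -0.06 over all genes. INSIG1, a sterol-regulated gene of that list, was at 491, 483 and 281 TPM after Acetalax in LNCaP parental cells against 144, 63.5 and 139 before (2.02 ± 0.25, adjusted p = 0.000694). INSIG1 lost that call with only the compared libraries (adjusted p = 0.0599). It also rose in PC3 parental and LNCaP CE cells, by 1.97 and 1.79 without the libraries set apart. Of 12 genes for the glucocorticoid receptor and its targets, 9 were lower and 1 higher in LNCaP CE, against the same 39.3% and 36%. In PC3 CE 7 were lower and 2 higher of 10 tested, against 39% and 38.5% of all genes. After Acetalax in PC3 CE 5 of the 10 rose, against 8.15% called of all genes, among them KLF9, at 29.2, 19.9 and 20.4 TPM against 11.5, 10.8 and 10.2 (1.17 ± 0.14, adjusted p = 0.00114), and DUSP1, at 84.6, 31.9 and 29.6 against 10.1, 10.2 and 11.1 (2.30 ± 0.34, adjusted p = 0.00299), replicate 1 being the highest for both. Without it KLF9 changed by 0.97 and DUSP1 by 1.63. DUSP1 lost its call with only the compared libraries (adjusted p = 0.0733). FKBP5 was at 16.4, 33.7 and 36.4 TPM in the same libraries.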

How the data were processed

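RNA was sequenced from 24 libraries in 8 groups of 3. The authors deposited expected counts per gene, and the submitters' processing notes name FastQC, STAR 2.7, RSEM and GRCh38/hg38 with no order of steps. The authors also deposited TPM values for the same genes and libraries, and those notes give no separate step for them. Neither the strand setting nor the annotation release is given in the sources used here. Of 60660 feature identifiers, 58429 are in GENCODE 29, which supplied positions. Each of the 2 tables has 1 column that belongs to no sample of the series and was not used. Of the expected counts 10.2% were not whole, and all were rounded.

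Tests used edgeR 4.0.16 in R 4.3.3 (quasi-likelihood, TMM scaling, filterByExpr with a minimum count of 10, Benjamini-Hochberg adjustment over all genes, threshold 0.05), fitted over the 12 libraries of a line or all 24 between lines. SE is the absolute log2 difference divided by the square root of F. Floors were 3 counts over a group, and intervals are exact at 95%. Both cover counting error only. Totals of 40160832 to 57728014 set the precision. The test was checked on simulated counts with the same spread for all genes and changes in well-expressed genes only. That check covers neither genes with few counts nor outlying libraries. Alternatives were RLE scaling, no filter, DESeq2 1.42.0, limma 3.58.1 on log2(TPM + 1) and log2(TPM + 0.1), a replicate block, only the libraries compared, each library left out, and 3 libraries left out together. Replicate libraries differed beyond counting noise (chi-square per degree of freedom 3.57 to 292).

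The 36 genes and all lists were chosen with earlier results of these data known. Genes named with a test are the 10 with the largest change of at least 1 on the log2 scale among those called in a comparison, 8 genes described in every control group (KLK2, KLK3, TMPRSS2, FKBP5, FOXA1, FOLH1, SLC45A3 and SPDEF), at most 4 per other list, and NR3C1. Results that need items withheld for evaluation are not reported here. Genes outside this rule were named after their values were seen.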

Additional observations from a re-analysis of the deposited data

Results flagged for a closer look

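Results are listed here because a test of the difference itself found that the same contrast gave unlike changes in 2 kinds of cells. All tests are edgeR's quasi-likelihood test over all genes. The change from parental to CE controls was lower in LNCaP than in PC3, on the log2 scale, by the following fitted differences: TRGC1 -19.62, UGT2B15 -18.55, KLK3 -18.22, UGT2B17 -16.68, FOLH1 -15.31, MAF -14.88, KLK15 -13.99, TRGC2 -13.93, KLK2 -13.80 and KLK4 -13.06. All rest on groups with few or no counts, FOLH1 with 20 over the PC3 parental controls, so their size depends on the prior count of the fit. TRGC1, UGT2B15, UGT2B17, MAF, KLK15, TRGC2, KLK2 and KLK4 entered this fit through LNCaP parental libraries, so their direction was fixed. KLK3 has no adjusted p in DESeq2, and TRGC2 was not called without PC3 CE control 1 (-10.81, adjusted p = 1).

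The same difference was positive for STEAP4 at 6.26, HPGD at 4.11, NNMT at 2.87, SLC43A1 at 1.34 and ALDH1A3 at 1.34. STEAP4 had 2 counts over the PC3 CE controls and 1 over the LNCaP CE controls. STEAP4 and NNMT lay below the filter in both CE lines, so their differences mostly restate the higher PC3 parental levels.

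The response to Acetalax differed between CE and parental cells for ZBTB10 in PC3, by 1.50, and for C1orf116 and FOXA1 in LNCaP, by 3.90 and 0.85. ZBTB10 was highest in PC3 CE Acetalax 1. FOXA1 lost its call without any of 4 single LNCaP CE libraries (CE controls 2 and 3, CE Acetalax 1 and 3), at 0.81 to 0.84, and on the log2(TPM + 1) and log2(TPM + 0.1) scales, at 0.60 (adjusted p = 0.123) and 0.40 (adjusted p = 0.536). The response of the parental lines differed for SLC45A3, by -0.70 in LNCaP relative to PC3.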

How the results depend on the processing

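The counts of the 36 genes called between the parental lines, between CE and parental controls and for the difference in CE change moved little with single libraries, and those between the CE lines more. Leaving out each library in turn gave 32 to 33 for LNCaP against PC3, 24 to 26 for PC3 CE, 34 to 35 for LNCaP CE, 13 to 20 between the CE lines and 32 to 35 for the difference in CE change. Between the CE lines log2(TPM + 1) gave 14, of which 12 were among the 19, log2(TPM + 0.1) gave 15, and the fit without the libraries set apart 25. Restricted, after seeing the data, to genes above the filter in every kind of cells compared, the counts were 23, 19, 20, 9 and 17, because fewer genes enter. The Acetalax counts were less stable. For PC3 parental cells (1 gene) leaving out each library gave 1, while DESeq2 and log2(TPM + 1) gave 3 each, log2(TPM + 0.1) gave 2, the fit without the libraries set apart 13 and the fit of only the compared libraries 11. For LNCaP parental cells (4) the range was 3 to 4, and 14 without the libraries set apart. For PC3 CE (1) the range was 0 to 5, with 4 by DESeq2, 2 by either TPM scale (both lower, ZBTB10 not among them), 5 without the library set apart and 0 with only the compared libraries. For LNCaP CE (2) every library left out gave 1, as did RLE scaling, no filter and log2(TPM + 1), the last with a lower gene that is neither of the 2, against 9 without the libraries set apart and 12 with only the compared ones. The PC3 difference in response (1) ranged over 1 to 9, with 5 by DESeq2, 2 by log2(TPM + 1) and 9 without the library set apart. The LNCaP difference (2) ranged over 1 to 4, with 4 by DESeq2 and 7 without the libraries set apart. The parental difference (1) ranged over 1 to 2, with 5 and 3 on the log2(TPM + 1) and log2(TPM + 0.1) scales, 7 without the libraries set apart and 2 with only the compared ones. The cause of these shifts was not tested. No named gene changed sign, and 110 of 132 named gene results kept their call under every alternative run.

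Same-numbered libraries were not shown to be paired, since in 0 of 8 pairs of groups did every pair correlate above 0.1 (range -0.586 to 0.419). With the replicate block 1 gene was called in LNCaP CE after Acetalax, 34 in LNCaP CE against parental and 17 between the CE lines, and the other counts were as without it.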
